A study of Mus musculus with 3 samples.

Results

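The 33 genes described here are markers of the dividing cell, chosen by symbol from a fixed list, and all 33 were found among the 32285 genes of the count matrices. By role they comprised 18 genes of G2 phase and mitosis (G2/M: Mki67, Top2a, Birc5, Cdk1, Ccna2, Ccnb1, Ccnb2, Cdc20, Cenpf, Cenpe, Tpx2, Ube2c, Nusap1, Hmmr, Prc1, Aspm, Kif11, Aurkb) and 9 genes of S phase (Pcna, Mcm2 to Mcm7, Tyms, Rrm2). The other members were Tk1 and Pclaf, which also serve DNA synthesis, and 4 genes that non-dividing cells express as well (Stmn1, Tuba1b, H2afz, Hmgb2). The cells came from brains of Apoe knockout mice, were sorted as CD45int CD11b+, a gate meant for microglia, and were profiled cell by cell in droplets, with the 3′ ends of transcripts sequenced. Day 4 was the only time sampled. Every group carried the Apoe knockout: sham induction with PBS, induction of NMOSD (neuromyelitis optica spectrum disorder, in which antibodies damage astrocytes of the optic nerve and spinal cord) with a control peptide, and induction of NMOSD with the peptide APOE130-149. Each group was a single library that pooled 4 mice, and with 1 library a group the differences below have no replicate check and no test. Between the sham and control peptide libraries the induction and the injected agent differed together, and their parts cannot be told apart.

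A dividing cell first licenses its replication origins with the MCM helicase (Mcm2 to Mcm7), copies its DNA in S phase with the sliding clamp Pcna and nucleotides made by Rrm2, Tyms and Tk1, and then enters mitosis under cyclin B and the kinase Cdk1. Many S phase genes are switched on by E2F factors, and many G2/M genes by the MuvB complexes with B-Myb and FoxM1 through promoter elements known as CHR, often beside CCAAT boxes bound by NF-Y. Microglia, the resident macrophages of the brain, divide slowly in the healthy adult and can divide locally after injury or inflammation.

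The promoters of the members are shown first because CHR and E2F letters were found at different shares in the G2/M and the S phase members. Promoter windows from RefSeq (GRCm38.p6), 250 bases before to 50 bases after the annotated start, were found for 28 of the 33 members. Letters were searched on both strands: TTTGAA or TTCGAA for the CHR, CCAAT for the NF-Y box, and TTTCCCGC, TTTCGCGC, TTTGCCGC or TTTGGCGC for E2F. CHR letters lay in the windows of 11 of 15 G2/M members (73.3%), 2 of 8 S phase members and 19.2% of all 32851 windows. CCAAT letters lay in 13 of 15 G2/M members, 7 of 8 S phase members and 37.4% of all windows. E2F letters lay in 4 of 8 S phase members (Mcm3, Mcm5, Mcm6, Mcm7), in 1 of 15 G2/M members (Cdk1) and in 2.26% of all windows. A match describes the letters only and is no evidence of binding, and no binding was measured. The 160 bases before the start follow, 5′ to 3′ along the gene, with the matched letters of any of these motifs in capitals; ATTGG is CCAAT on the other strand, and adjoining capitals in Mcm5 and Mcm6 are overlapping E2F matches on both strands. The first 4 are of G2/M members, of which Ccnb2 holds CCAAT letters without CHR letters in the stretch shown (Mki67, chr7:135716380-135716539, minus strand; Ccnb2, chr9:70421555-70421714, minus strand; Cdk1, chr10:69352913-69353072, minus strand; Cdc20, chr4:118437344-118437503, minus strand). Hmgb2 (chr8:57511683-57511842, plus strand) is a broadly expressed member with CHR letters, and Mcm5 (chr8:75109349-75109508, plus strand) and Mcm6 (chr1:128359706-128359865, minus strand) stand for S phase.
Mki67: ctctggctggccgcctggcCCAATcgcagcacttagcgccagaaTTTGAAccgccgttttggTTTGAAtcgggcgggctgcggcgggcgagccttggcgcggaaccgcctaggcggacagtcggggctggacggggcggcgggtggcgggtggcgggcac
Ccnb2: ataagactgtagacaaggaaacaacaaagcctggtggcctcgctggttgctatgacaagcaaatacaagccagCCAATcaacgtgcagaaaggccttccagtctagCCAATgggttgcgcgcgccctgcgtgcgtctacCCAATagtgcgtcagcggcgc
Cdk1: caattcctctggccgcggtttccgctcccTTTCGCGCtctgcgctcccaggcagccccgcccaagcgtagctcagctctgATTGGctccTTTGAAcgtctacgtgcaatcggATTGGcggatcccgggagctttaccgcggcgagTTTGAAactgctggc
Cdc20: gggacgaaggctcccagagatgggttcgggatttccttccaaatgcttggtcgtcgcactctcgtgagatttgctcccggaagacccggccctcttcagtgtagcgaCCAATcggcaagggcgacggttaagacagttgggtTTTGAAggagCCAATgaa
Hmgb2: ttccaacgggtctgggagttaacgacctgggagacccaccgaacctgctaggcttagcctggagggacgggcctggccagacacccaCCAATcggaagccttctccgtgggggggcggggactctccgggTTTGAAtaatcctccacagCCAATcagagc
Mcm5: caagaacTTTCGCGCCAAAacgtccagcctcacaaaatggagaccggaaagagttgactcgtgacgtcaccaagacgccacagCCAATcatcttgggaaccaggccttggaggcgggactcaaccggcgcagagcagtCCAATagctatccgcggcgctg
Mcm6: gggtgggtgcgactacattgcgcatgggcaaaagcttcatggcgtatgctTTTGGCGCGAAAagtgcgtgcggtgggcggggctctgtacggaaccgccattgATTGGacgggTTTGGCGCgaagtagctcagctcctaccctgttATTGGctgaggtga

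Cells were kept at 500 genes or more and 10% mitochondrial counts or less, namely 4231 from sham, 5011 from the control peptide library and 2025 from the APOE130-149 library, at medians of 7124, 7848 and 9991 unique molecular identifiers (UMIs, counts of captured RNA molecules). Of these cells, 3904, 4512 and 1796 passed a gate on 11 microglia markers, and in them P2ry12, a defining gene of microglia, stood at 2611, 2391 and 2587 CPM, the usual counts-per-million scale on which all genes of the same cells share the total. Apoe UMIs were counted at 85.3, 122 and 132 CPM in the same cells, and because 3′ counts may come from outside the deleted part they do not check the genotype. Across libraries, 12 barcodes were shared. Low-depth cells were not evenly spread: 22.8% of sham microglia had fewer than 2000 UMIs, against 5.61% with the control peptide and 7.02% with APOE130-149. Markers of other cells in the microglia gate also differed, with the 13 neutrophil markers, all detected, summing to 402, 744 and 1420 CPM, the 11 monocyte markers to 60.6, 113 and 109 CPM, and the 11 markers of border-associated macrophages to 290, 291 and 338 CPM. The 9 markers of early neutrophils, of which 8, 8 and 6 were detected, summed to 52.6, 103 and 185 CPM, although Elane, a defining gene of these precursors, was at or below 0.112 CPM in each. Choroid plexus markers summed to 4.02, 98.1 and 77.0 CPM and erythroid markers to 0.531, 29.9 and 12.2 CPM. In microglia with at least 3 G2/M UMIs by the depth-matched count used below, Camp, one of the granule genes, stood at 5.55, 146 and 16.3 CPM, against 16.8, 36.4 and 64.1 CPM in the other microglia. Their part in the results was not tested.

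In microglia, the 18 G2/M members together were highest in the control peptide library. Their sum was 209 CPM in sham (95% Poisson interval 203 to 214), 285 CPM with the control peptide (281 to 290) and 255 CPM with APOE130-149 (249 to 261). The sum was thus 1.37-fold higher with the control peptide than in sham (exact conditional interval 1.33 to 1.41) and 1.12-fold lower with APOE130-149 than with the control peptide (1.09 to 1.15). All intervals here and below are 95% and cover counting error only, not variation between mice or libraries, and the comparisons share the control peptide library. Intervals of UMI sums and ratios take each UMI as independent. Because few cells held most G2/M UMIs, they are too narrow for the drawing of cells. The second difference turned over with the choice of cells: without cells above 2 times their library's median UMIs, the G2/M sum with APOE130-149 was 1.06 times that with the control peptide (1.01 to 1.12), while the control peptide was then 2.42-fold above sham (2.27 to 2.58). No doublet caller was run, and cells of high UMI count can include doublets. The cut also takes out many cells rich in G2/M UMIs, so its ratios describe the cells that are left. The 1% of microglia with most G2/M UMIs had medians of 18714, 30698 and 30808 UMIs, in libraries with medians of 7124, 7848 and 9991.

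The 9 S phase members differed less between sham and the control peptide. They summed to 166 CPM in sham, 195 CPM in the control peptide library and 181 CPM with APOE130-149, a 1.18-fold higher level with the control peptide than in sham (1.14 to 1.22) and a 1.08-fold lower level with APOE130-149 than with the control peptide (1.04 to 1.11). Without the cells above 2 times the median, the ratio of APOE130-149 to control peptide was 1.02 (0.963 to 1.07). For each S phase UMI there were 1.26 G2/M UMIs in sham (1.21 to 1.30), 1.46 with the control peptide (1.42 to 1.498) and 1.40 with APOE130-149 (1.35 to 1.46). The balance of G2/M to S phase UMIs was thus lower in sham than in either NMOSD library, by intervals that leave out the drawing of cells.

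Over single members, the control peptide library stood above sham for 32 of 33 ratios, with Tuba1b as the exception, and scaling by median of ratios in place of totals put Tuba1b above 1 as well. Of the 20 members that reached 10 CPM in sham or control peptide, 3 were at least 1.5-fold higher with the control peptide than in sham (Ube2c, Birc5, Hmgb2) and 0 were at least 1.5-fold lower; of all 8503 genes measured at that level, 1.71% were that much higher and 0.953% that much lower. Of these libraries, Ccnb2 and Hmmr reached 10 CPM in the control peptide one only. The median log2 ratio of the 20 members was 0.34, beside -0.07 over all genes at that level. Between APOE130-149 and the control peptide, 0 of 20 members were 1.5-fold higher and 0 of 20 were 1.5-fold lower, against 0.501% and 0.0954% of 8385 genes, with a median log2 ratio of -0.15 beside 0.01 over all genes. Over all 33 members 27 of these ratios lay below 1 and 6 above, and without cells above 2 times the median UMIs 11 lay below and 20 above. Against sham, 0 of 20 members were 1.5-fold higher with APOE130-149 and 0 of 20 were 1.5-fold lower, where 1.88% and 0.833% of 8522 genes were.

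**Figure D1:**
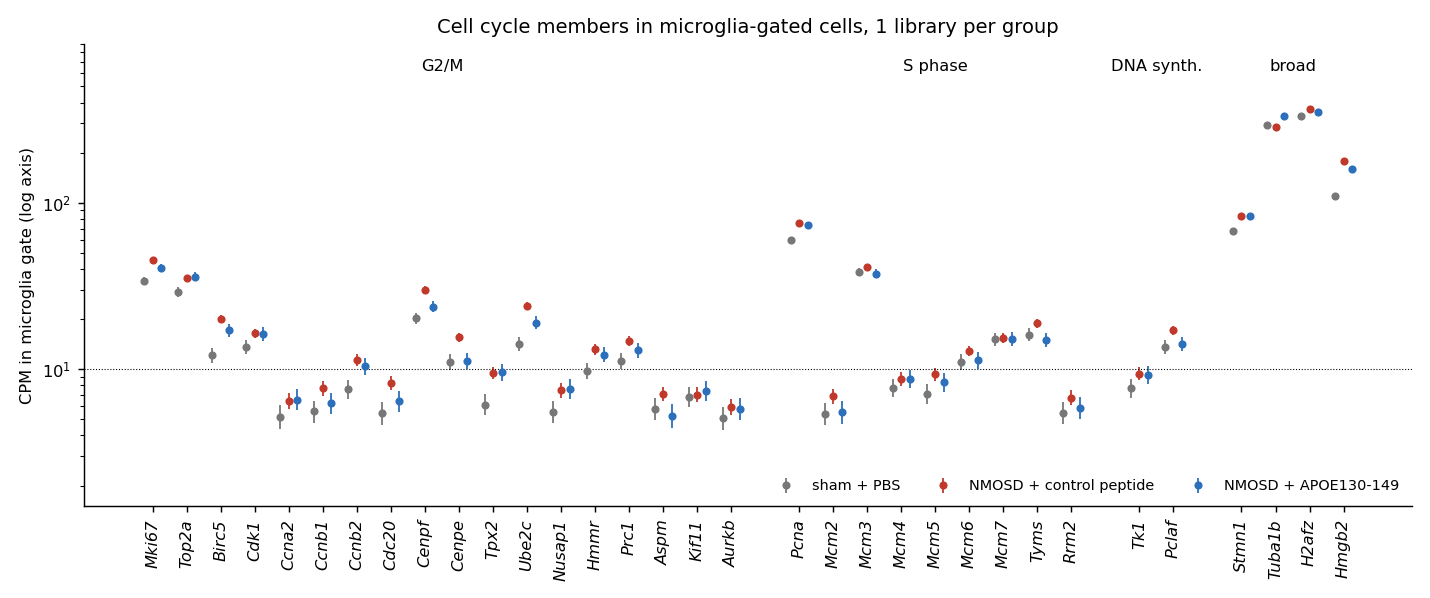
Level of each of the 33 members in microglia-gated cells in CPM (log axis), with 1 point per library and 95% Poisson bars for counting error; the dotted line marks 10 CPM. Ube2c, Birc5 and Hmgb2 show the widest gaps between the sham and control peptide points among members above the line, and the S phase members lie closer together.

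The first of the G2/M members are genes of the anaphase-promoting complex, which ends mitosis. Ube2c, the ubiquitin-conjugating enzyme of the anaphase-promoting complex, stood at 14.3 CPM in sham, 24.0 in the control peptide library and 19.1 with APOE130-149, which is 1.68-fold higher with the control peptide than in sham (1.51 to 1.88) and 1.26-fold lower with APOE130-149 than with the control peptide. Cdc20, an activator of the same complex, stood at 5.44, 8.24 and 6.43 CPM in that order, a 1.51-fold difference from sham to control peptide (1.26 to 1.82) at a level under 10 CPM. For both genes the APOE130-149 library lay between the others.

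The chromosomal passenger complex, which corrects the attachment of chromosomes to the spindle, has Birc5 (survivin), the kinase Aurkb, Cdca8 and Incenp as subunits, of which the last pair were measured as genes outside the 33. Birc5 stood at 12.2 CPM in sham, 20.1 with the control peptide (1.65-fold higher, 1.46 to 1.86) and 17.2 with APOE130-149. Cdca8 was 1.78-fold higher with the control peptide than in sham (1.54 to 2.08), from 7.60 to 13.6 CPM. Aurkb, at 5.08, 5.94 and 5.79 CPM, and Incenp, at 17.2, 19.5 and 18.9 CPM, lay closer together, and the intervals of the Aurkb ratios included 1. Differences between the subunits of this complex were not tested.

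Next came the cyclins and their kinase. Cdk1, the kinase that drives entry into mitosis, stood at 13.7 CPM in sham, 16.4 CPM in the control peptide library and 16.3 CPM with APOE130-149. Its partners Ccnb1 (5.58, 7.68 and 6.25 CPM) and Ccnb2 (7.60, 11.4 and 10.5 CPM) were 1.38-fold and 1.498-fold higher with the control peptide than in sham, and Ccna2, which acts from S phase to G2, stood at 5.18, 6.44 and 6.57 CPM. All were lowest in sham, and the ratios of APOE130-149 to control peptide had intervals that included 1 for Cdk1, Ccna2 and Ccnb2 but not for Ccnb1 (0.679 to 0.974).

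A further group acts in chromosome structure and the kinetochore. Mki67, which coats mitotic chromosomes, stood at 33.9 CPM in sham, 45.3 in the control peptide library and 40.5 with APOE130-149. Top2a, the topoisomerase that untangles replicated DNA, stood at 29.1, 35.2 and 36.0 CPM, and the interval of the ratio between the NMOSD libraries included 1. Cenpf and Cenpe, proteins of the kinetochore, stood at 20.2, 30.1 and 23.8 CPM and at 11.02, 15.5 and 11.2 CPM. Both kinetochore genes were thus highest in the control peptide library, unlike Top2a. Cenpe was 1.38-fold lower with APOE130-149 than with the control peptide and 1.02 times its sham level (0.871 to 1.19), while Cenpf with APOE130-149 was 1.18-fold above sham (1.05 to 1.32).

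The 6 spindle genes spanned 5.23 to 14.8 CPM. Tpx2, which nucleates spindle microtubules, was 1.55-fold higher with the control peptide than in sham (6.14 to 9.51 CPM) and stood at 9.57 CPM with APOE130-149. Prc1, a bundler of the central spindle, stood at 11.3, 14.8 and 13.03 CPM, and Hmmr, a spindle-associated hyaluronan receptor, at 9.79, 13.2 and 12.3 CPM. Nusap1 (5.54, 7.45 and 7.59 CPM), Aspm (5.81, 7.12 and 5.23 CPM) and the motor Kif11 (6.80, 7.04 and 7.38 CPM) completed the group. The intervals of all Kif11 ratios included 1, and its ratio of control peptide to sham lay below 1 under a stricter cell filter (1000 genes or more, 5% mitochondrial counts or less).

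In S phase, the clamp Pcna stood at 59.6 CPM in sham, 75.3 in the control peptide library and 73.7 with APOE130-149, a 1.26-fold difference between control peptide and sham (1.19 to 1.34). Of the MCM helicase subunits, Mcm2 and Mcm5 were 1.27-fold and 1.30-fold higher with the control peptide than in sham, at 5.41 to 6.89 CPM and 7.14 to 9.31 CPM. Mcm3 (38.5, 41.2 and 37.5 CPM), Mcm4 (7.73, 8.75 and 8.72 CPM) and Mcm7 (15.1, 15.5 and 15.3 CPM) had intervals for that ratio that included 1, and Mcm6 stood at 11.1, 12.9 and 11.3 CPM. Differences between subunits were not tested. Without cells above 2 times the median UMIs, Mcm2, Mcm3 and Mcm7 turned to ratios below 1.

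Of the genes that supply nucleotides, Tyms (thymidylate synthase) stood at 16.1 CPM in sham, 18.9 in the control peptide library and 15.05 with APOE130-149, where it was 1.26-fold lower than with the control peptide. Rrm2, the regulated subunit of ribonucleotide reductase, stood at 5.48, 6.76 and 5.86 CPM, and the thymidine kinase Tk1 at 7.70, 9.40 and 9.22 CPM. Pclaf, which binds Pcna at the replication fork, stood at 13.6, 17.2 and 14.2 CPM. In these 4 genes sham was lower than the control peptide library by 1.18-fold to 1.26-fold.

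The 4 broadly expressed members did not share a direction. Hmgb2, a chromatin protein of dividing and of some myeloid cells, stood at 110 CPM in sham, 179 in the control peptide library and 159 with APOE130-149, 1.62-fold higher with the control peptide than in sham (1.56 to 1.69). The histone H2afz stood at 332, 366 and 350 CPM, and the microtubule regulator Stmn1 at 67.5, 83.6 and 83.4 CPM. The tubulin Tuba1b, at 294, 284 and 332 CPM, was highest with APOE130-149, 1.17-fold above the control peptide (1.14 to 1.202). Tuba1b is nearly identical to other alpha-tubulin genes, so its counts are uncertain where reads could be split between copies. Another 8 members (Ccna2, Cdc20, Ube2c, Nusap1, Prc1, Mcm7, Tk1, Pclaf) and Tuba1b itself overlap another counted gene, and since counting by strand is not given in the sources used here, reads of the overlapping genes cannot be told apart.

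Most G2/M UMIs came from few cells. No G2/M UMI was counted in 81.7% of sham microglia, 74.3% of control peptide microglia and 70.5% of those given APOE130-149. Shares of cells and of UMIs in this paragraph and the next were not matched for depth. Microglia had medians of 7271, 7785.5 and 9981.5 UMIs in the same order. The 1% of microglia with most G2/M UMIs, 40, 46 and 18 cells, held 79.2%, 57.1% and 53.8% of them, and the same share of cells ranked on S phase UMIs held 25.2%, 20.6% and 18.1% of those. Outside that top 1% the G2/M sum was 44.6 CPM (sham), 126 CPM (control peptide) and 121 CPM (APOE130-149), and outside the top 5% it was 20.4, 29.4 and 30.03 CPM. The top 5% of cells held nearly equal shares, 91.1%, 91.0% and 89.6%. A fixed share of cells covers more of the G2/M-positive cells in a library with fewer of them. The top shares therefore do not show how UMIs were spread among dividing cells. The top 1% also had more RNA, with medians of 18714, 30698 and 30808 UMIs against 7239, 7754 and 9921 in the other microglia.

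**Figure D2:**
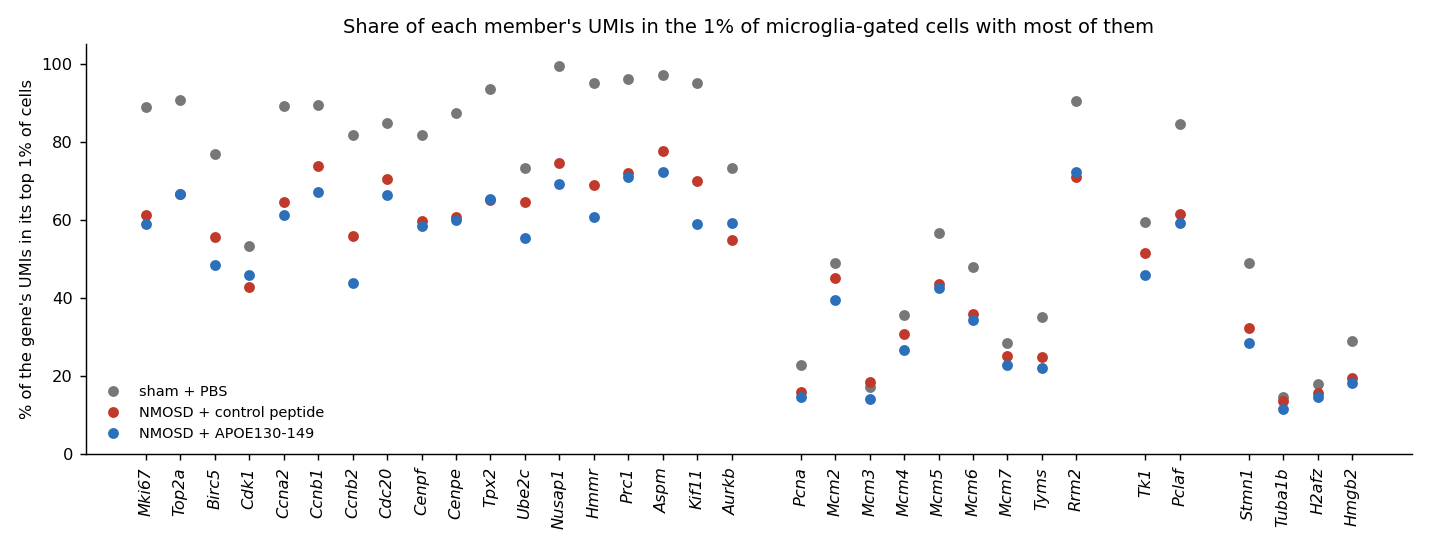
Percent of each member's UMIs held by the 1% of microglia-gated cells with most UMIs of that member, by library. G2/M members lie mostly above 50% and highest in sham, whereas Pcna, Mcm3, Tuba1b and H2afz lie below 23%; Rrm2 and Pclaf lie with the G2/M members.

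Concentration differed among members of 1 role. Nusap1 had 99.4% of its sham UMIs in its top 1% of cells, where only 1.05% of cells had a Nusap1 UMI at all, so that this value is close to the highest it could be for a gene so sparse. Mki67, found in 3.23% of sham cells, had 88.9% of its UMIs in the top 1%. Cdk1, with UMIs in 5.87% of sham cells, had 53.4%, the lowest share of any G2/M member in sham, and it was also lowest with the control peptide (42.9%). Among the S phase members Rrm2 stood at 90.3%, 70.9% and 72.3%, whereas Pcna stood at 22.8%, 16.0% and 14.6% and had UMIs in 27.7%, 42.0% and 47.3% of cells.

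To compare cells at equal depth, each cell was thinned at random to 2000 UMIs, which left out 891 sham, 253 control peptide and 126 APOE130-149 microglia below that depth. At least 3 G2/M UMIs were then found in 54 of 3013 sham microglia (1.79%, Clopper-Pearson interval 1.35% to 2.33%), 135 of 4259 with the control peptide (3.17%, 2.66% to 3.74%) and 59 of 1670 with APOE130-149 (3.53%, 2.70% to 4.53%). The sham share lay below both others with no overlap of intervals. The NMOSD libraries overlapped, and since their order here is opposite to the order of their CPM sums, no order is read from it. Without thinning the shares were 3.43%, 7.23% and 9.08%. At least 3 S phase UMIs were found in 33, 69 and 26 of the thinned cells (1.10%, 1.62% and 1.56%), and 14, 27 and 9 cells had both.

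**Figure D3:**
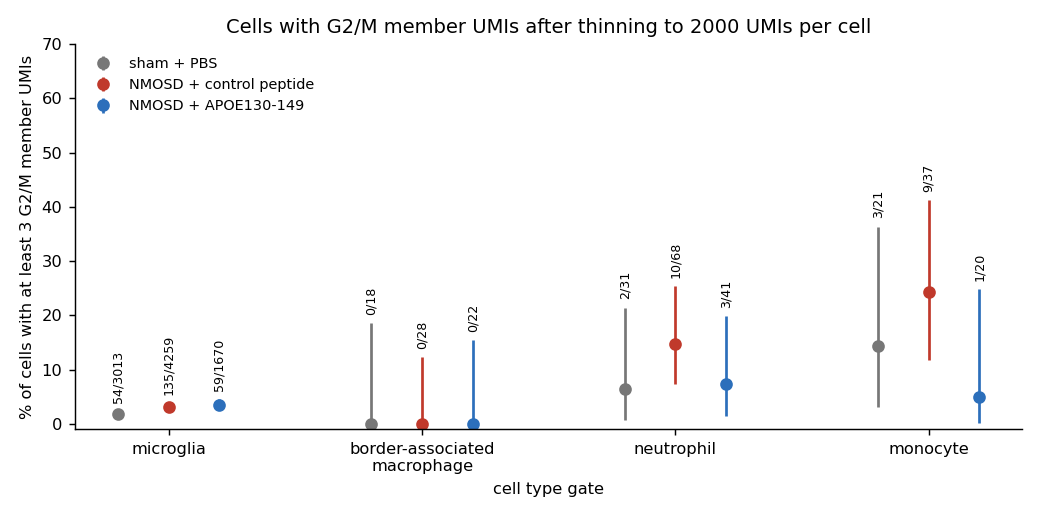
Percent of cells with at least 3 UMIs of the 18 G2/M members after thinning every cell to 2000 UMIs, by cell type gate and library, with exact Clopper-Pearson 95% bars and cell numbers above each. Microglia lie between 1.79% and 3.53%, no cell of the border-associated macrophage gate passed, and the neutrophil and monocyte bars are wide because each rests on 20 to 68 cells.

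A background for such values comes from cells rich in choroid plexus genes, an epithelium that hardly divides in the adult. These held 4 G2/M UMIs in 29 control peptide cells (11.6 CPM, 3.15 to 29.6) at a median of 7155 UMIs, and 1 of these cells had at least 3 without thinning. They also carried P2ry12 at 260 CPM and S phase members at 54.9 CPM (33.04 to 85.7). Microglia of the same library, at a median of 7785.5 UMIs, stood at 285 and 195 CPM, so their S phase sum was nearer to this background than their G2/M sum.

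Microglia were then divided by genes that are not among the 33, with 30 S phase genes and 42 G2/M genes, each cell thinned to 4000 UMIs and at least 6 UMIs of a list required. In sham, 19 cells fell into S phase, 27 into G2/M, 17 into both and 2727 into neither; with the control peptide 48, 76, 36 and 3866 cells, and in the APOE130-149 library 12, 33, 15 and 1530 cells. The G2/M class made up 0.968% of sham cells (0.639% to 1.40%), 1.89% of control peptide cells (1.49% to 2.36%) and 2.08% with APOE130-149 (1.43% to 2.90%). The S phase class made up 0.681% (0.410% to 1.06%), 1.19% (0.880% to 1.58%) and 0.755% (0.391% to 1.31%), with overlapping intervals. P2ry12 stood between 987 and 1710 CPM in these 3 dividing classes and between 2473 and 2648 CPM in the cells of neither class.

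Most members sorted by role in these classes. All 18 G2/M members were higher in the G2/M class than in the S class in 3 of 3 libraries, and Pcna and the 6 MCM genes were lower in 3 of 3. Tyms and Rrm2, the other S phase members, were lower in the G2/M class in sham and control peptide, but with APOE130-149 their ratios were 1.07 (0.551 to 2.19) and 2.999 (1.03 to 11.9). Mcm6 stood at 163, 160 and 128 CPM in the S class and at 2.49, 12.02 and 18.01 CPM in the G2/M class, in the order sham, control peptide, APOE130-149. Cdc20 showed the opposite, at 7.96, 2.00 and 0 CPM against 222, 167 and 170 CPM. In APOE130-149, where no Cdc20 UMI was seen in the S class, the lower limit of the ratio of G2/M to S class was 13.8. With the S class set at 3 counts the ratio was 17.3.

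Some members peaked where both lists were present. Rrm2 stood at 240, 256 and 252 CPM in the cells with both, against 67.6, 56.0 and 13.1 CPM in S and 22.4, 36.6 and 39.3 CPM in G2/M. Tyms, Tk1 and Pclaf were likewise highest in the cells with both in 3 of 3 libraries, for example Pclaf at 562, 477 and 417 CPM. Top2a, with 1065, 897 and 968 CPM in cells with both and 693, 520 and 689 CPM in G2/M, differed in this from Ube2c, with 198, 247 and 190 CPM against 489, 439 and 462 CPM. Aurkb, at 1.74-fold, 4.88-fold and 3.61-fold, and Cdk1, at 3.38-fold, 2.97-fold and 4.78-fold, had the smallest excesses of the G2/M class over the S class, and in sham the Aurkb interval (0.786 to 4.24) included 1.

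**Figure D4:**
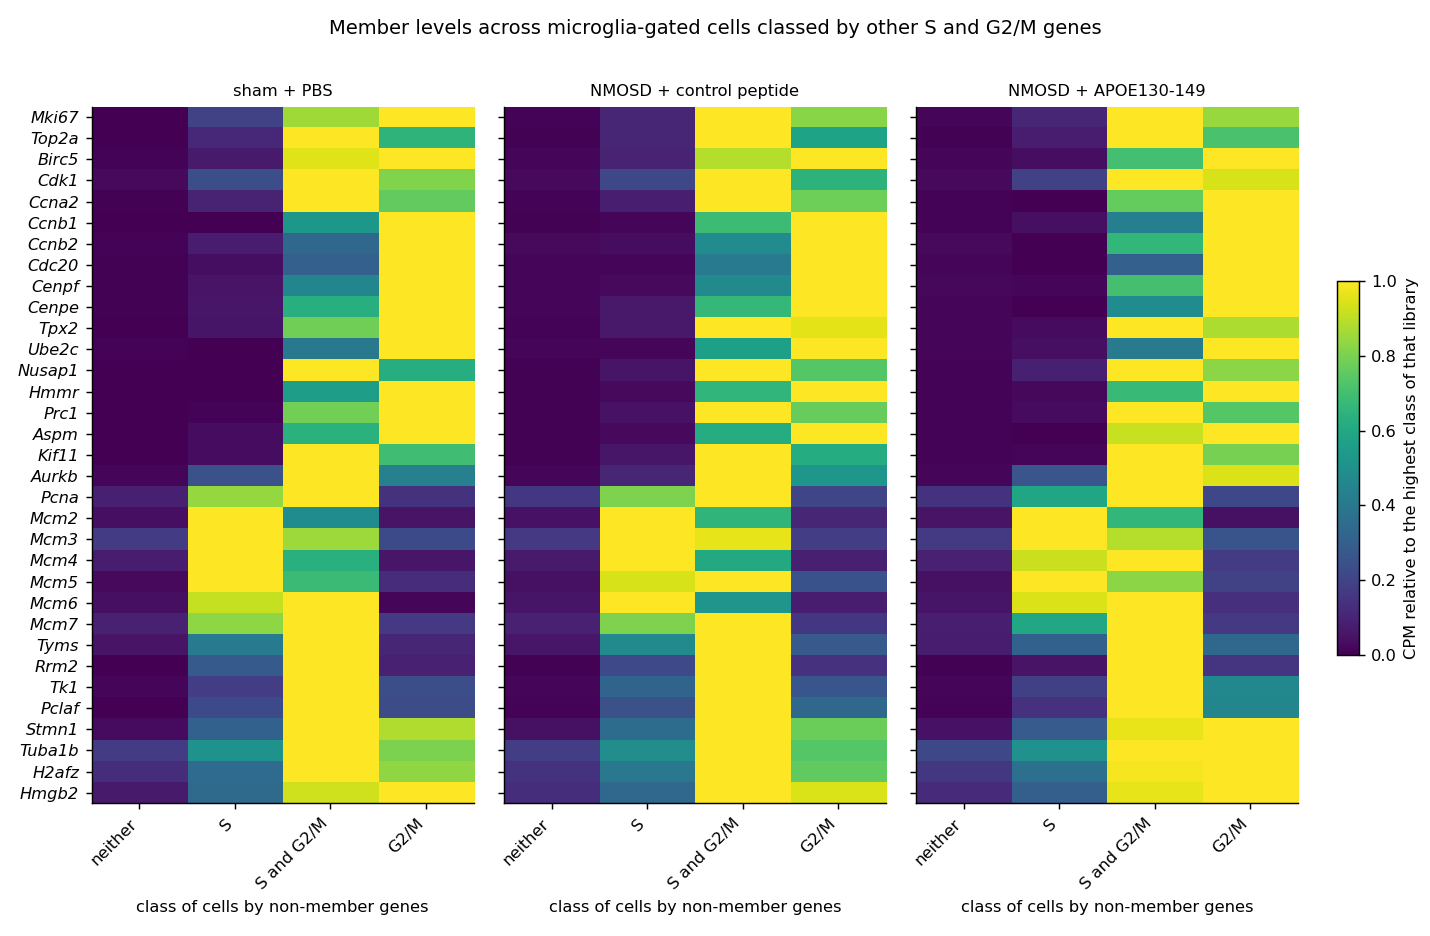
Level of each member in microglia-gated cells classed by 30 S phase and 42 G2/M genes that are not members, 1 panel per library, as CPM relative to the highest of the 4 classes for that gene and library. The MCM genes are brightest in S or in cells with both, Ccnb1, Ccnb2, Cdc20, Cenpf and Ube2c in G2/M, and Rrm2, Tyms, Tk1 and Pclaf in cells with both.

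The excess of the control peptide library over sham was not seen within the G2/M class. Within the G2/M class the 18 members summed to 6351 CPM in sham (6107 to 6603), 4833 with the control peptide (4731 to 4938) and 5131 with APOE130-149 (4953 to 5314), which is 1.31-fold lower with the control peptide than in sham. Mki67 in this class stood at 1059, 748 and 735 CPM. In the cells of neither class, the G2/M sum was 34.6 CPM in sham (32.5 to 36.9), 62.2 with the control peptide (60.0 to 64.4) and 76.5 with APOE130-149 (73.2 to 79.9), so that APOE130-149 was 1.23-fold above the control peptide there (1.16 to 1.30). The cells of neither class include those just under the 6 UMIs.

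The 3 members past 1.5-fold were divided in the same way. Ube2c and Birc5 in the G2/M class had ratios of control peptide to sham of 0.899 (0.767 to 1.06) and 1.005 (0.830 to 1.23), against 1.61 (1.30 to 2.02) and 1.98 (1.52 to 2.62) in the cells of neither class. Most Hmgb2 UMIs lay outside the dividing classes, which held 25.03% to 32.1% of them. In the cells of neither class Hmgb2 stood at 78.1 CPM in sham, 136 in the control peptide library and 126 with APOE130-149, 1.75-fold higher with the control peptide than in sham (1.66 to 1.84). In the G2/M class it stood at 1109, 984 and 1023 CPM, 1.13-fold lower with the control peptide than in sham (1.01 to 1.25).

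Outside microglia, G2/M members were sparse in border-associated macrophages and abundant in a few neutrophils and monocytes. The gates held 24, 31 and 24 border-associated macrophages, 35, 68 and 42 neutrophils and 21, 38 and 22 monocytes, in the order sham, control peptide, APOE130-149. The first gate had Mrc1, a marker of these macrophages, at 2340, 2070 and 2106 CPM, but also P2ry12 at 887, 1317 and 1483 CPM. In border-associated macrophages, which line vessels and meninges, the 18 G2/M members had 15, 15 and 17 UMIs in all (67.9, 49.8 and 64.6 CPM), of which Cenpf alone gave 8, 7 and 9. Top2a, Ccna2, Ccnb1, Ccnb2, Cenpe, Nusap1, Prc1, Aspm and Kif11 had no UMI in this gate in any library. Here 3 counts equal 13.6, 9.95 and 11.4 CPM, so lower levels cannot be told from absence. After thinning, 0 of 18, 0 of 28 and 0 of 22 cells had at least 3 G2/M UMIs, which allows shares up to 18.5%, 12.3% and 15.4%. Their S phase sum was 158, 143 and 125 CPM, with 0.429 (0.217 to 0.805), 0.349 (0.180 to 0.641) and 0.515 (0.269 to 0.952) G2/M UMIs for each S phase UMI, all below the microglia values. Some cells outside every gate held 20 or more UMIs of border-associated macrophage markers per 10000. Of these ungated cells, 1 of 25, 6 of 83 and 1 of 35 had at least 3 G2/M UMIs after thinning.

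The G2/M sum of neutrophils in the sort rested on few cells. Their sum was 546 CPM in sham, 1638 in the control peptide library and 753 with APOE130-149, led by Mki67 (99.7, 262 and 130 CPM) and Top2a (94.7, 246 and 116 CPM). A single cell held 67.1%, 22.8% and 44.3% of these UMIs in the same order. Without that cell, an alternative chosen after seeing the data, the sums were 194 CPM (152 to 244), 1351 CPM and 444 CPM (389 to 503), so that sham neutrophils overlapped sham microglia (209 CPM) while the others lay above their microglia. At least 3 G2/M UMIs were found in 2 of 31, 10 of 68 and 3 of 41 thinned cells. The intervals of these shares overlapped (0.791% to 21.4%, 7.28% to 25.4% and 1.54% to 19.9%), so no order is read from them. The positive cells carried Camp, a granule gene of immature neutrophils, at 46313, 49201 and 50630 CPM against 24011, 32866 and 21145 CPM in the others, and Retnlg, a gene of mature neutrophils, at 0, 43.1 and 0 CPM against 12857, 10253 and 16236 CPM. Cell cycle RNA in this gate thus lay in cells high in Camp and nearly free of Retnlg in 3 of 3 libraries. Of the early neutrophil list, Ngp and Chil3 were likewise higher in the positive cells in 3 of 3 libraries, but not all genes were. In the 2 positive sham cells Elane stood at 0 CPM against 736 in the others, Prtn3 at 21.2 against 501 and Fcnb at 339 against 490. With the control peptide Ltf stood at 4902 against 9334 CPM. The positive cells are too few to name their stage.

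Monocytes had the widest spread between libraries. Their G2/M sum was 1119 CPM in sham, 2608 in the control peptide library and 225 with APOE130-149, in 3 of 21, 9 of 37 and 1 of 20 positive thinned cells, and 1 cell held 46.4%, 20.5% and 67.2% of the UMIs. Without it the sums were 651, 2196 and 80.0 CPM. Shares of positive cells had overlapping intervals (3.05% to 36.3%, 11.8% to 41.2% and 0.127% to 24.9%), so no order is read from them. There were 7.30 and 6.34 G2/M UMIs for each S phase UMI in sham and control peptide and 1.40 with APOE130-149. Nusap1, Hmmr, Prc1, Aspm, Kif11 and Ccnb1 had no UMI in the APOE130-149 monocytes. In that gate 3 counts equal 10.1 CPM, so lower levels cannot be told from absence. In the control peptide library 4 of the 9 positive cells had at least 3 UMIs of Elane and Mpo counted together, genes of granulocyte and monocyte progenitors, and Elane stood at 2146 CPM in the positive cells against 8.52 CPM in the others, so that some cells of this gate are not mature monocytes by their markers. Although they were 0.758% of the control peptide cells, monocytes held 7.47% of that library's G2/M UMIs, beside 74.5% for microglia, 6.58% for neutrophils and 11.3% for ungated cells. In sham microglia held 88.3% and with APOE130-149 86.8%.

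**Figure D5:**
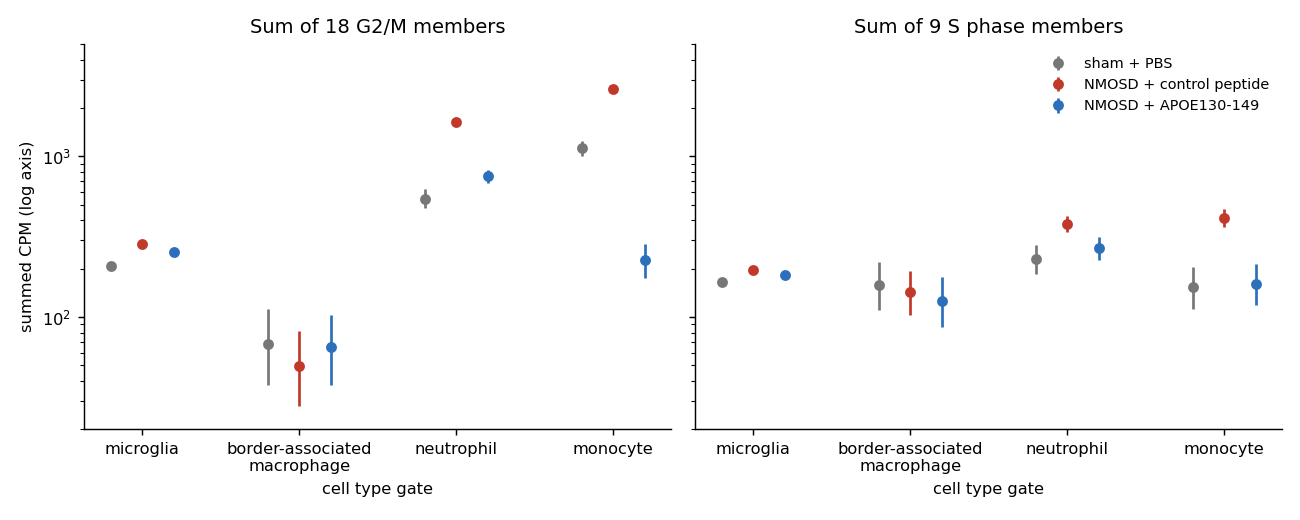
Summed CPM (log axis) of the 18 G2/M and the 9 S phase members in each cell type gate and library, with 95% Poisson bars for counting error. G2/M sums are lowest in border-associated macrophages, from 49.8 to 67.9 CPM, and highest in control peptide neutrophils and monocytes, at 1638 and 2608 CPM.

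Of 34 regulators of the cycle, 24 had at least 10 CPM in microglia of sham or control peptide. Of these, 2 were at least 1.5-fold higher with the control peptide and 0 lower, beside 1.71% and 0.953% of all 8503 genes. The higher 2 were Btg2 (288 CPM in sham, 1207 in the control peptide library and 1350 with APOE130-149) and Btg1 (362, 677 and 866 CPM). Both are known as anti-proliferative genes, but whether their levels bear on division here was not tested. The D-type cyclin Ccnd1 stood at 86.4, 96.5 and 92.7 CPM, its kinases Cdk4 and Cdk6 at 49.2, 56.9 and 53.3 CPM and at 71.0, 84.3 and 77.9 CPM, and the inhibitor Cdkn1b at 72.3, 58.7 and 59.1 CPM. Csf1r, the receptor that maintains microglia, stood at 4200, 3693 and 4305 CPM. E2f1 (4.65, 6.29 and 5.72 CPM) and Foxm1 (2.26, 2.92 and 3.21 CPM), drivers of S phase and G2/M transcription, were lowest in sham, and the interval of the Foxm1 ratio of control peptide to sham included 1. Between APOE130-149 and control peptide 0 of 24 regulators passed 1.5-fold in either direction, where 0.501% of all genes were higher and 0.0954% lower. The nearest regulator was Myc, 1.46-fold higher with APOE130-149 (19.6 to 28.6 CPM).

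The cell cycle genes outside the 33 were sparser. Of 42 further G2/M genes 7 had at least 10 CPM, and 1 of them, Cdca8, was at least 1.5-fold higher with the control peptide than in sham, with a median log2 ratio of 0.18 over the 7. Of 30 further S phase genes 10 had that level, with 1 at least 1.5-fold higher (Gmnn, geminin, the inhibitor of repeated origin licensing, 7.27 to 11.7 CPM) and 1 at least 1.5-fold lower (Wdr76, 12.7 to 8.28 CPM), and a median log2 ratio of 0.08. Cdca8 and Gmnn reached 10 CPM only in the control peptide library of the compared pair and Wdr76 only in sham, so these counts are a description beside the 1.71% higher and 0.953% lower among all genes. Between APOE130-149 and control peptide none of the 7 and none of 9 passed 1.5-fold, beside 0.501% higher and 0.0954% lower among all genes. Their median log2 ratios were -0.07 and -0.20.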

How the data were processed

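The authors deposited raw UMI counts for every gene and cell barcode of the 3 libraries, unscaled. Cell Ranger 5.0.1, Seurat 4.3.0 and the mm10 build are named in the submitters' processing notes, while the file headers name cellranger 7.0.1; whether intronic reads or strand were used in counting is not given in the sources used here. The 33 members, the gene lists and the marker lists were chosen with earlier results of these data known, and the thresholds of the cell type gates and classes were set after the data were seen.

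Libraries were grouped by the treatment in the labels. Gates used summed UMIs of marker lists per 10000 UMIs: microglia at least 50 with at least 3 markers and limits on neutrophil (400), monocyte (30) and border-associated macrophage (20) markers, neutrophils at least 1000, monocytes and border-associated macrophages at least 50; 247, 362 and 141 cells stayed ungated, and 58, 42 and 20 microglia lay within 20% of the cut. Doublets were kept. Counts were summed per library and gate and scaled to CPM. Ratios carry exact conditional intervals, with 1.5-fold at 10 CPM or more in either library as the call. A count of 0 was limited at 3 counts. Thinning drew UMIs without replacement with a fixed seed. All 33 members were named, and other genes only from the fixed lists. Scripts were tested on simulated data. Gene coordinates came from GENCODE M21 (GRCm38, the assembly of mm10), matched for 32235 of 32285 identifiers. Python 3.11.15, numpy 2.4.6, scipy 1.17.1, pandas 2.3.3, scanpy 1.11.5 and matplotlib 3.10.9 were used.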

Additional observations from a re-analysis of the deposited data

How the results depend on the processing

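Among the alternative values of the main results, 49 moved by less than their counting error or stayed within 1.5 times the count, 34 moved further and 2 turned over. The G2/M ratio of control peptide to sham, 1.37 as reported, was 1.27 with cells of at least 1000 genes and at most 5% mitochondrial counts, 2.42 without cells above 2 times the median UMIs, 1.53 over all cells, 1.47 in microglia-like clusters, 1.85 without the 0.25% of cells with most member UMIs and 1.44 with median-of-ratios scaling. The S phase ratio, 1.18, was 1.22 over all cells, 1.22 in clusters, 1.25 without the 0.25% and 1.24 with that scaling, which shifts all genes by 0.07 log2. Its values under the stricter cell filter and the cut at 2 times the median are not given here. Under that cut the ratios of Mcm2, Mcm3 and Mcm7 turned below 1. Members past 1.5-fold higher, 3 as reported, numbered 5 without cells above 2 times the median, 12 over all cells, 6 in clusters, 10 without the 0.25%, 5 with median-of-ratios scaling, 5 with no minimum CPM and 0 at 2-fold. For APOE130-149 over control peptide, leaving out cells above 2 times the median turned the G2/M ratio to 1.06 and the S phase ratio to 1.02, and over all cells they were 0.778 and 0.889, with 3 members 1.5-fold lower. The cause was not tested. Shares of all genes past 1.5-fold are given for the main microglia gate only. The counts of members under the other settings therefore have no background to be read against. The values over all cells include neutrophils and monocytes, whose G2/M sums were also highest in the control peptide library. Their part in the counts over all cells was not tested. The share of microglia with G2/M UMIs in sham, control peptide and APOE130-149 was 1.03%, 2.05% and 2.55% without cells above 2 times the median, 1.11%, 2.23% and 2.39% thinned to 1000 UMIs, and 1.10%, 2.47% and 2.51% with at least 5 UMIs. At 2 UMIs it was 2.52%, 4.27% and 4.07%, thinned to 4000 UMIs 2.33%, 3.97% and 4.78%, and with the 42 other G2/M genes 2.36% (1.84% to 2.96%), 3.36% (2.84% to 3.94%) and 4.37% (3.44% to 5.47%), where the sham and control peptide intervals overlap. Chosen after seeing the data, class limits of 4 and 8 UMIs gave G2/M classes of 1.58% and 0.717% in sham, 2.19% and 1.79% with the control peptide and 2.33% and 2.14% with APOE130-149, and S classes of 2.97% and 0.323%, 2.73% and 0.720%, and 2.52% and 0.440%, so the order of the S classes depends on the limit. No paired analysis was possible because each group is 1 library. Depth limits the other gates, where 18 to 68 cells stand behind each share.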
